A study of Mus musculus with 2 samples.

Results

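The genes described here encode the proton pump of the lysosome and other acidic compartments, the cathepsins and a few proteins of the lysosome membrane, as read in whole mouse adrenal gland by long-read RNA sequencing. They are the annotated protein-coding genes whose symbol starts with Atp6v or Atp6ap, is Cts followed by 1 letter, or is Lamp1, Lamp2, Lamp5, Cd63 or Scpep1. Of 49 such genes, 37 had at least 1 read, among 16745 annotated genes with reads. The tissue came from C57BL/6J mice in 1 group of 2 libraries, numbered as biological replicates 1 and 2, with no treatment, time point or altered allele. The labels call the tissue male and wild type in a description while leaving sex as not collected and age as unknown, and the libraries have separate biosamples that share 1 donor entry. Each p-value below therefore compares the 2 libraries as such, and their difference may be technical in part.

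The vacuolar proton pump splits ATP in its soluble V1 sector and moves protons through its membrane-bound V0 sector, and so acidifies lysosomes, endosomes and secretory granules. In chromaffin cells of the adrenal medulla the proton gradient made by this pump drives catecholamines into the granules. Cathepsins are proteases that work best at the acid pH so created, and LAMP proteins line the inner face of the lysosome membrane. Several genes of this system are known targets of the transcription factor TFEB, which binds a short palindromic motif built on CACGTG.

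Replicate 1 held 848782 reads and replicate 2 held 545229, so that 1 read stood for 1.18 and 1.83 CPM (reads scaled to 1000000 per library). The known reads of replicate 1 had a median annotated length of 1648 bases against 2740 bases in replicate 2, and 44.0% against 5.47% of them came from transcripts under 1500 bases. This difference touches every comparison of levels below. All 7 cortex markers and all 7 chromaffin cell markers had reads. Of 7 kidney genes, 5 (Aqp2, Kap, Nphs1, Slc12a1 and Umod) had none and the other 2 gave 5 and 7 reads in sum. These 2 were Lrp2 (1 and 0 reads) and Atp6v0d2 (4 and 7 reads), and Atp6v0d2 is itself a pump gene described here. Because the samples are bulk tissue, fewer cells of a type and less RNA per cell cannot be told apart.

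The results turned on 3 places in the structure of the transcripts, and their sequences are shown first. The end of Lamp2 decides which LAMP-2 protein is made, since 3 annotated transcripts of this gene on the minus strand (chrX:38401357-38456414, mm10) share their earlier coding exons and differ in the last one. The coding parts of these last exons follow, from the GENCODE M21 transcripts, with the last 5 codons and the stop codon in capitals. They lie at chrX:38405432-38405571, chrX:38421712-38421851 and chrX:38402139-38402281.
Lamp2-201, LAMP-2A: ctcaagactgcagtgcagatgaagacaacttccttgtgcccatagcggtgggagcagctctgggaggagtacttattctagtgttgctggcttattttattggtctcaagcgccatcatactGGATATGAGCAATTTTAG
Lamp2-202, LAMP-2B: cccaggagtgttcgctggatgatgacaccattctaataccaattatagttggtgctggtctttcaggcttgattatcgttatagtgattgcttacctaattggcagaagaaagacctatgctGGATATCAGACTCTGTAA
Lamp2-203, LAMP-2C: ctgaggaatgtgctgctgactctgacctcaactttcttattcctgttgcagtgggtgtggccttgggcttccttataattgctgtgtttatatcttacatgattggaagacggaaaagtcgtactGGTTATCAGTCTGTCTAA

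The start of Ctsa was the next such place, because most of its reads began inside the annotated exon 2. RefSeq (GRCm38.p6) lists a second promoter there, and the window from 60 bases before to 50 bases after its start site (chr2:164833713-164833822, plus strand) is printed with capitals from the start site on.
Ctsa second promoter: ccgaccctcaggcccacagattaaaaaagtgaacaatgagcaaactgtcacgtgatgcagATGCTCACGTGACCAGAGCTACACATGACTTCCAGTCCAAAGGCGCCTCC

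The last place was the coding middle of Atp6v0a1 on chromosome 11 (plus strand). There the most read structure over both libraries (2 and 11 reads) left out segments that single annotated transcripts hold. These segments are in capitals between 15 bases of the flanking exons, at chr11:101026660-101026680, chr11:101049459-101049476 and chr11:101054831-101054848.
Atp6v0a1-203, segment of 21 bases: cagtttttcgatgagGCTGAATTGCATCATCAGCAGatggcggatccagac
Atp6v0a1-201, small exon of 18 bases: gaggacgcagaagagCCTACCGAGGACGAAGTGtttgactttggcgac
Atp6v0a1-210, small exon of 18 bases: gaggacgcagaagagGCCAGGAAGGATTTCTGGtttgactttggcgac

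Together the genes took 1.25% of all reads in replicate 1 (95% exact Clopper-Pearson interval 1.23 to 1.28%) and 0.984% in replicate 2 (0.958 to 1.01%), a mean of 1.12% ± 0.190 (SD, n = 2). Such intervals cover counting error only. The pump with its accessory proteins gave 3939 and 1721 of these reads, the cathepsins with Scpep1 gave 5067 and 2663, and the membrane proteins gave 1618 and 979. Of the 37 genes, 35 had reads in both libraries, 29 passed 100 CPM in at least 1 of them and 13 passed it in both.

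**Figure D1:**
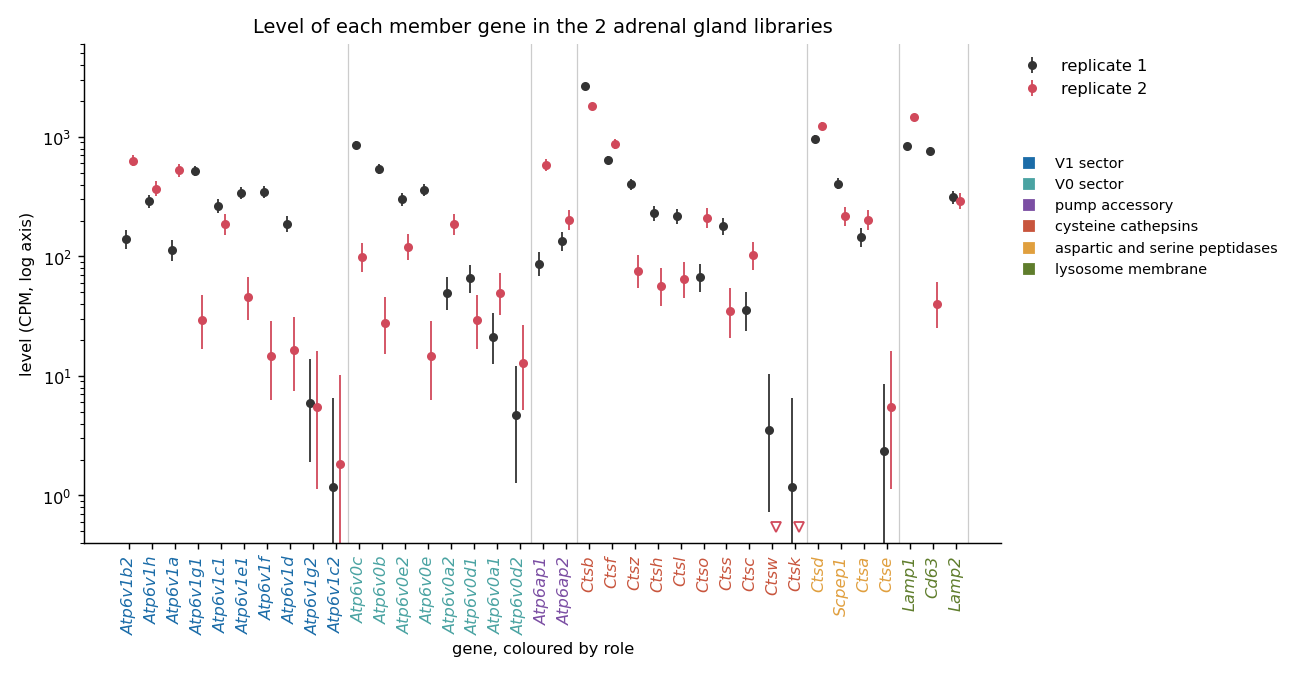
Level of each gene with reads in CPM (log axis), in replicate 1 (dark) and replicate 2 (red), with 95% Poisson intervals that cover counting error only; open triangles mark no read, and gene names are coloured by role. Ctsb is highest in both libraries at 2676 and 1805 CPM, and short subunits such as Atp6v1f and Atp6v0e sit far lower in replicate 2.

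The V1 sector comprised 10 genes with reads. Atp6v1a, the catalytic subunit that splits ATP, had 113 CPM (96 reads) in replicate 1 and 525 CPM (286 reads) in replicate 2. Its partner in the hexameric head, Atp6v1b2, had 140 CPM (119 reads) and 633 CPM (345 reads). Atp6v1h, a regulatory subunit at the junction of the sectors, differed less, with 290 and 370 CPM from 246 and 202 reads. These were the V1 genes that were higher in replicate 2.

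The remaining V1 genes with enough reads were lower in replicate 2. Atp6v1c1 had 265 and 187 CPM from 225 and 102 reads. The peripheral stalk subunits Atp6v1e1 and Atp6v1g1 had 288 and 438 reads in replicate 1 but 25 and 16 in replicate 2, or 339 and 516 CPM against 45.9 and 29.3 CPM. Of the central rotor subunits, Atp6v1f had 348 and 14.7 CPM (295 and 8 reads), and Atp6v1d had 187 and 16.5 CPM (159 and 9 reads). Atp6v1g2 and Atp6v1c2 stayed under the minimum for a test, with 5 and 3 reads and with 1 read in each library.

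In the V0 sector, the proteolipid Atp6v0c, which builds most of the proton-carrying rotor ring, was the most read subunit of replicate 1 with 865 CPM (734 reads) and had 99.0 CPM (54 reads) in replicate 2. A processed pseudogene of this gene, Atp6v0c-ps2, was credited with 7 and 2 reads, so reads of near-identical copies could be split to that extent. Atp6v0b, the other ring subunit, had 543 CPM (461 reads) and 27.5 CPM (15 reads). The small subunits Atp6v0e and Atp6v0e2 had 362 and 303 CPM in replicate 1 and 14.7 and 121 CPM in replicate 2. Atp6v0d1, which couples the ring to the central stalk, had 66.0 CPM (56 reads) and 29.3 CPM (16 reads). The a subunits, which hold the static part of the proton channel, went the other way: Atp6v0a2 had 49.5 and 185 CPM from 42 and 101 reads, and Atp6v0a1 had 21.2 and 49.5 CPM from 18 and 27 reads. Atp6v0d2, known from osteoclasts and kidney, had 4 and 7 reads.

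Both accessory genes were higher in replicate 2. Atp6ap1, which helps assemble the pump, had 87.2 CPM (74 reads) and 585 CPM (319 reads). Its annotated span overlaps the gene Taz on the same strand, to which 60 and 92 reads were assigned. Atp6ap2, also known as the prorenin receptor, had 134 CPM (114 reads) and 204 CPM (111 reads).

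Among the cysteine cathepsins, Ctsb stood first in both libraries, with 2676 CPM (2271 reads) in replicate 1 and 1805 CPM (984 reads) in replicate 2, or 21.4% and 18.3% of the reads of all 37 genes. Ctsf followed with 643 and 871 CPM from 546 and 475 reads. Ctsc, which trims dipeptides and activates granule proteases in immune cells, had 35.3 and 103 CPM, and Ctso had 67.2 and 211 CPM. These 2 genes and Ctsf were the cysteine cathepsins with more CPM in replicate 2.

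The other cysteine cathepsins had fewer. Ctsz, a carboxypeptidase, had 403 CPM (342 reads) in replicate 1 and 75.2 CPM (41 reads) in replicate 2, and Ctsh, an aminopeptidase, had 231 and 56.9 CPM. Ctsl, an endopeptidase of wide expression, had 217 CPM (184 reads) and 64.2 CPM (35 reads). Ctss, an enzyme of antigen-presenting cells, had 179 CPM (152 reads) and 34.8 CPM (19 reads). Of the 11 macrophage markers listed beside it, 10 had reads (Marco had none), and their summed level was 1334 CPM in replicate 1 and 387 CPM in replicate 2, with 6 of 9 tested genes lower and 3 higher in replicate 2; the part of macrophage RNA in the cathepsin values was not tested.

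Ctsd, the aspartic protease among the cathepsins, had 961 and 1236 CPM from 816 and 674 reads. The serine carboxypeptidases were Ctsa, which also protects lysosomal galactosidase and neuraminidase, with 145 and 204 CPM, and Scpep1, with 405 and 218 CPM. Lamp1, the most abundant membrane glycoprotein of lysosomes, had 833 CPM (707 reads) and 1462 CPM (797 reads). Lamp2 was nearly level with 313 and 293 CPM from 266 and 160 reads. Cd63, a tetraspanin of late endosomes and lysosomes, had 760 CPM (645 reads) and 40.4 CPM (22 reads).

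The other 12 genes had no read, and many of them are known from other tissues. They comprised the pump isoforms Atp6v0a4, Atp6v1b1, Atp6v1e2, Atp6v1g3 and Atp6ap1l, with Atp6v1fnb, then Ctsg of neutrophils, the placental cathepsins Ctsj, Ctsm, Ctsq and Ctsr, and Lamp5. A count of 0 allows up to 3.53 CPM in replicate 1 and 5.50 CPM in replicate 2, taking 3 counts as the limit. Ctse, Ctsk and Ctsw had 1 to 3 reads in any library where they were read. Of 5 neutrophil and mast cell markers, 4 (Cpa3, Elane, Kit and Mpo) had no read either.

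Each of the 32 genes with at least 10 reads summed was set against the library totals with Fisher's exact test (two-sided), with p-values adjusted by the Benjamini-Hochberg method over all 9879 genes tested. Of these 32 genes, 13 were higher and 17 lower in replicate 2 at an adjusted p under 0.05. Over all genes tested, 64.4% passed, with 36.6% higher and 27.9% lower, so that passing this test is common. Of 30 genes with at least 50 reads summed, 12 were higher and 17 lower, where 83.4% of all such genes passed (44.0% higher and 39.4% lower). On reads of known transcripts alone, 31 genes were tested and the counts were again 12 and 17, where 75.6% of all genes passed (41.9% higher and 33.7% lower). The median log2 ratio (replicate 2 over replicate 1, on log2 of CPM plus 1) was -0.53 for these genes and 0.38 for all genes. Atp6v0d2 (log2 ratio 1.28, adjusted p = 0.166) and Lamp2 (log2 ratio -0.09, adjusted p = 0.593) did not pass.

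With edgeR's TMM scaling, which shifts every log2 ratio down by 0.44, 7 of the 32 genes were higher and 18 lower, beside 27.6% and 33.8% of all genes (61.4% in all). DESeq2 size factors gave 7 and 18 as well, beside 27.5% and 33.8% (61.3% in all). With TMM, Ctsd and Atp6v1h changed sign without passing, Atp6ap2, Atp6v0a1, Ctsa and Ctsf no longer passed, and Lamp2 was lower (log2 ratio -0.53, adjusted p = 0.000531).

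The direction of the ratio went with transcript length. All 9 tested genes whose most read annotated transcript is shorter than 1500 bases were below 0, between -4.53 (Atp6v0e, 823 bases) and -2.33 (Ctss, 1355 bases), where the median over all genes was -3.25 under 1000 bases and -2.43 from 1000 to 1500 bases. Of the 12 genes between 2000 and 3000 bases, 10 were above 0, with a median of 0.70 against 1.05 for all genes of that length. Within the pump the summed reads differed by transcript length. Its 8 V1 and V0 genes under 1500 bases gave 2529 reads in replicate 1 and 130 in replicate 2, a 12.5-fold lower share, while its 10 longer ones gave 1222 and 1161 reads, a 1.48-fold higher share. That sum hides differences among the longer genes, since Atp6v1d (-3.43, 3667 bases), Atp6v0e2 (-1.32), Atp6v0d1 (-1.14) and Atp6v1c1 (-0.50) were lower in replicate 2.

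**Figure D2:**
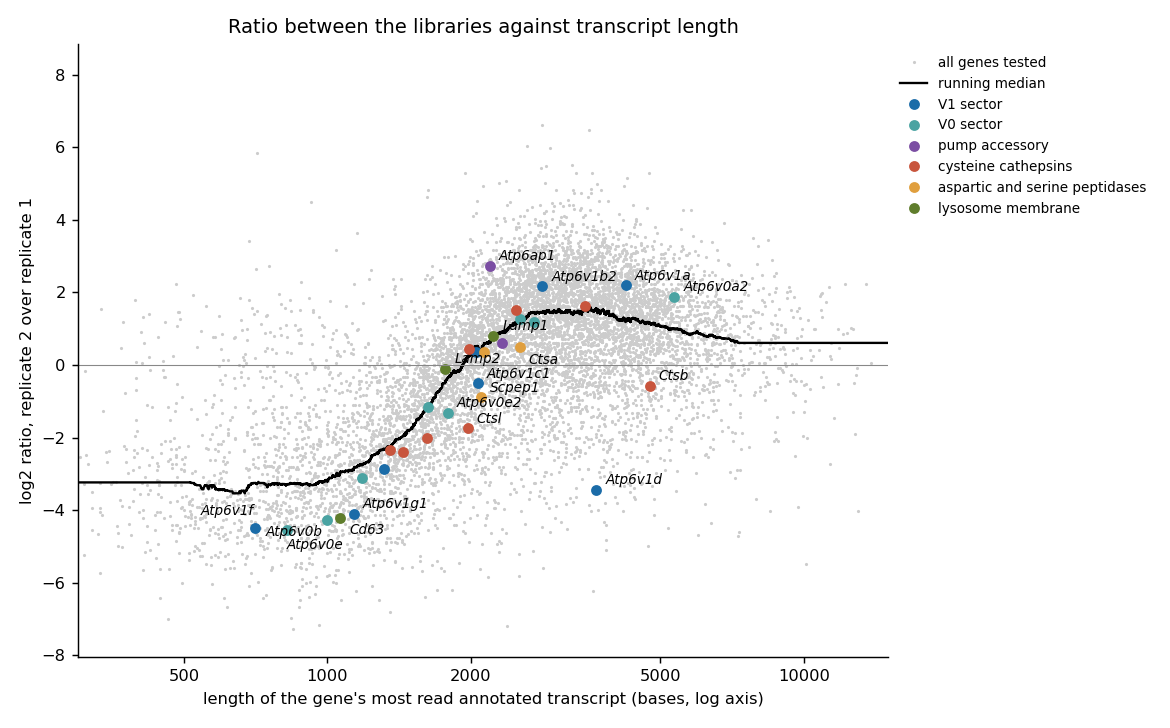
Log2 ratio of replicate 2 over replicate 1 against the length of the most read annotated transcript (bases, log axis), for all genes tested (grey), their running median over length (line) and the member genes coloured by role. The genes under 1500 bases lie between -4.53 and -2.33, and Atp6ap1 lies 2.07 above and Atp6v1d far below the line (-4.99).

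When the running median over genes of like length was subtracted and each gene tested by a two-sided exact binomial test, 19 of the 32 genes passed, 5 higher and 14 lower, beside 41.3% of 9166 genes (19.9% higher and 21.4% lower). That median took in genes from 10 reads summed, and the 1 CPM added to each level draws the ratios of little-read genes towards 0. How far this moved the median at short lengths was not tested. Atp6ap1 stood furthest above genes of its length (2.07, adjusted p = 4.37e-35; 6.71-fold higher by reads alone). Atp6v1a (0.99, adjusted p = 6.74e-09), Atp6v0a2 (0.89, adjusted p = 0.0019), Atp6v1b2 (0.71, adjusted p = 9.15e-06) and Lamp2 (0.36, adjusted p = 0.0367) were the other genes above. So the catalytic head subunits were higher in replicate 2 with and without this step. Lamp2 was higher only with it, and its value rests on 1769 bases, the length of Lamp2-201. In replicate 2 Lamp2-202, of 3604 bases, had more reads than Lamp2-201 (75 against 58), so 1 length does not stand for both libraries.

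Atp6v1d stood furthest below (-4.99, adjusted p = 1.71e-59). Its annotated transcript is 3667 bases long, and 44 of its 159 reads in replicate 1 were an incomplete match of 8 exons and 642 bases. Also below were Ctsl (-1.97, adjusted p = 3.09e-16), Ctsb (-1.72, adjusted p = 5.63e-234), Scpep1 (-1.30, adjusted p = 4.63e-18), Atp6v1c1 (-1.01) and Atp6v0e2 (-0.98). Atp6v0b, Atp6v0e, Atp6v1f, Atp6v1g1 and Cd63 lay between -1.24 and -1.05 and passed, as did Ctsa (-0.78), Ctsh (-0.76) and Ctsd (-0.19). By the exact binomial test Atp6v0c (-0.37, adjusted p = 0.121) and Atp6v1e1 (-0.54, adjusted p = 0.125) did not pass. The Ctsa value rests on 2534 bases, the length of Ctsa-202, which had 23 of 123 and 29 of 111 reads. The most read Ctsa model, an incomplete match with 75 and 53 reads, measured 1787 and 1753 bases in replicates 1 and 2. Its ratio against genes of that length was not tested. Ctss was at -0.10 (adjusted p = 0.902), and of 9 macrophage markers tested in this way none was lower and 1 was higher.

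**Figure D3:**
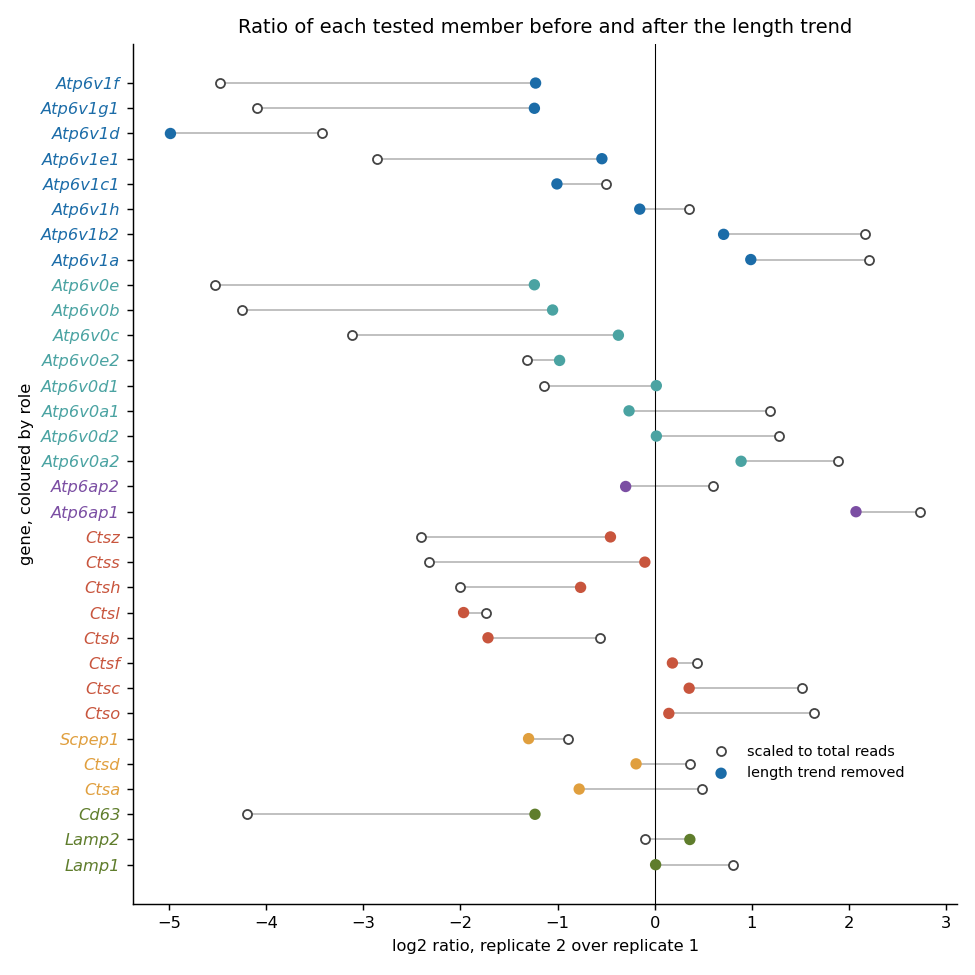
Log2 ratio of replicate 2 over replicate 1 for the 32 tested genes, scaled to total reads (open circles) and after the running median over length was subtracted (filled circles, coloured by role). Most filled circles lie nearer 0 than the open ones; Atp6v1d moves away to -4.99, and Atp6ap1 stays at 2.07.

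The annotated length can differ from the length of the molecules. The files give model lengths only for unannotated structures, and for several genes these were shorter than the annotated transcript. Unannotated spliced models of Ctsb (56 reads) had a median length of 1953 bases where Ctsb-201 is annotated with 4743, and read at that length the ratio of Ctsb lay -0.74 from the trend. Those of Atp6v0a2 had a median of 3020 bases against 5345 annotated, and those of Atp6v1a 3084 against 4234. The same step, added after the data were seen, brought Atp6v0a2 to 0.43, Atp6v1a to 0.72 and Ctsa to -0.019. For Ctsa it used 12 reads with a median of 2044 bases, which leave out the most read model. It turned Atp6v1h to 0.52, Ctsd to 0.42, Ctsh to 0.23 and Lamp2 to -0.18, and left Atp6ap1 at 2.11, Atp6v1b2 at 0.71, Scpep1 at -1.29 and Atp6v1c1 at -1.01.

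Several pump subunits exist as paralogs that take the same position, and their reads were compared position by position. At the B, C and E positions of V1, 1 gene gave nearly all reads: Atp6v1b2 119 of 119 and 345 of 345, Atp6v1c1 225 of 226 and 102 of 103, and Atp6v1e1 288 of 288 and 25 of 25. At the G position Atp6v1g1 gave 438 of 443 reads in replicate 1 and 16 of 19 in replicate 2 (84.2%, 60.4 to 96.6%). At the d position of V0, Atp6v0d1 gave 56 of 60 and 16 of 23 reads.

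The e and a positions were shared. Atp6v0e and Atp6v0e2 gave 54.4% (50.2 to 58.6%) and 45.6% of the e reads in replicate 1, against 10.8% (4.78 to 20.2%) and 89.2% in replicate 2; their transcripts measure 823 and 1789 bases. At the a position Atp6v0a2 gave 42 of 69 reads in replicate 1 (60.9%, 48.4 to 72.4%) and 101 of 257 in replicate 2 (39.3%, 33.3 to 45.6%). Tcirg1, which encodes the a3 subunit and lies outside the symbol rule, gave 9 of 69 reads (13.0%, 6.14 to 23.3%) and 129 of 257 (50.2%, 43.9 to 56.5%). Atp6v0a1 gave 26.1% and 10.5%, and Atp6v0a4 had no read. On known transcripts alone, Atp6v0a2 led in replicate 2 as well, with 56.5% against 40.5% for Tcirg1, and Atp6v0a1 gave 5.56% and 3.05%. The a genes have annotated lengths of 2716 (Atp6v0a1), 5345 (Atp6v0a2) and 2688 bases (Tcirg1), and Tcirg1 also stood 2.91 above genes of its length (adjusted p = 5.67e-15, exact binomial test).

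**Figure D4:**
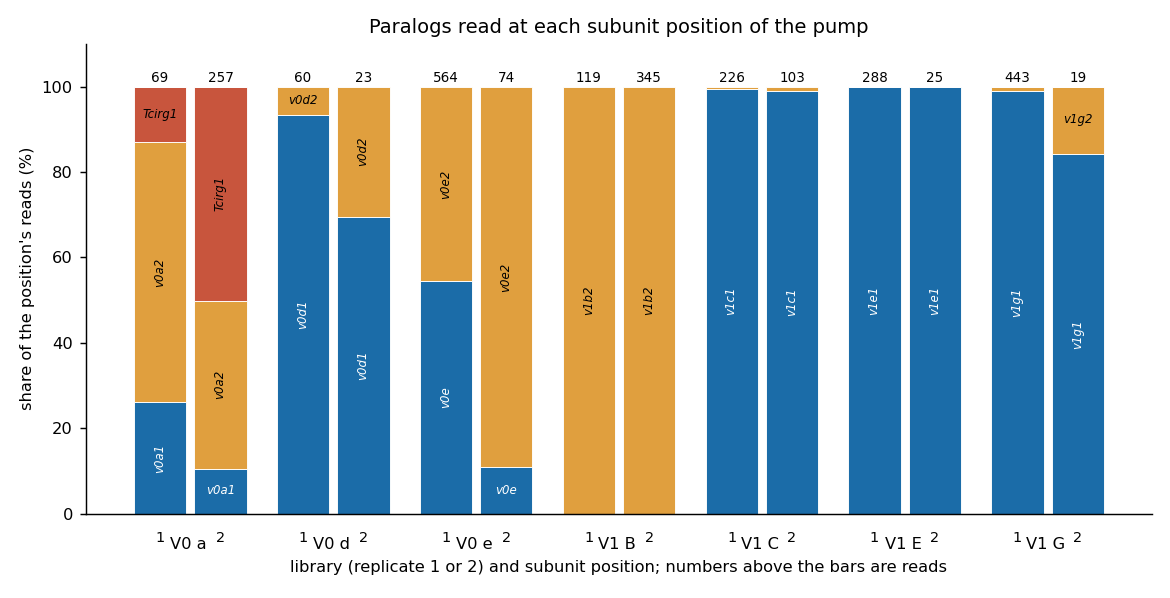
Share of the reads of each pump subunit position (percent) taken by each paralog, for replicate 1 and replicate 2, with the number of reads above each bar. A single paralog fills the B and E positions and nearly fills C, whereas the e position passes from 54.4% to 10.8% Atp6v0e and the a position is split over Atp6v0a1, Atp6v0a2 and Tcirg1.

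Most reads of these genes matched an annotated transcript. Known structures made up 89.9% of their reads in replicate 1 and 89.8% in replicate 2, against 72.5% and 72.5% of all reads. The total of all reads is wider, as it also holds reads typed as antisense (4.41% and 2.07%) or as intergenic (0.822% and 1.57%). Member genes, counted as known genes, held no read of either type, so part of this contrast comes from the unlike totals. Incomplete matches gave 6.33% and 4.18%, known splice sites in an unannotated combination (NIC) gave 0.809% and 2.48%, and structures with an unannotated splice site (NNC) gave 2.24% and 3.13%. Over all reads, NIC structures gave 3.08% and 6.08%.

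To ask whether the libraries differed in isoform use, reads of known, NIC and NNC structures were counted and are called spliced reads here. They leave out incomplete matches and include a few annotated transcripts of 1 exon. The most read structure's share was tested for genes with 20 or more such reads in each library (Fisher's exact test, two-sided). Of 23 member genes only Lamp2 passed, beside 9.84% of 2186 genes, with adjustment over all of these. It was also the only one of 15 with at least 50 reads in each library (13.3% of genes passed) and of 13 on known transcripts alone (12.0%). In 15 of the 23, 1 structure held over 90% in both libraries. Examples are Atp6ap2-201 (108 of 109 and 107 of 108 reads), Atp6v0c-201 (716 of 721 and 54 of 54), Atp6v0e2-201 (250 of 251 and 64 of 65), Ctsd-202 (738 of 749 and 642 of 652), Ctsb-201 (2126 of 2175 and 933 of 948) and Atp6v1b2-201 (103 of 106 and 322 of 333). Atp6ap1-201 held 46 of 52 and 285 of 309, Atp6v1c1-201 205 of 214 and 87 of 96, Scpep1-201 325 of 329 and 113 of 119, and Ctso-201 51 of 54 and 109 of 114. Their less read structures had at most 8 reads each in a library.

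For Lamp2, Lamp2-201 held 185 of 249 spliced reads in replicate 1 (74.3%) and 58 of 151 in replicate 2 (38.4%), an adjusted p of 1.28e-10 by Fisher's exact test. Lamp2-202 held 44 and 75 reads, and Lamp2-203 held 5 and 5. Counting every model by the last coding exon joined to the shared one, the LAMP-2A exon was in 199 of 260 reads (76.5%, 70.9 to 81.6%) of replicate 1 and 61 of 156 (39.1%, 31.4 to 47.2%) of replicate 2. The LAMP-2B exon was in 55 (21.2%, 16.4 to 26.6%) and 89 (57.1%, 48.9 to 64.9%), and the LAMP-2C exon in 6 and 6. LAMP-2A, the receptor of chaperone-mediated autophagy, was thus the leading end in replicate 1 and LAMP-2B in replicate 2, while LAMP-2C was rare in both. The annotated lengths are 1769 bases for Lamp2-201, 3604 for Lamp2-202 and 2184 for Lamp2-203. Replicate 2, whose known reads came from longer annotated transcripts at large, thus also had more of the longest form. How much of the shift goes with length was not tested. The third most read structure (7 and 4 reads) spliced from the LAMP-2B exon, past its stop codon, to the LAMP-2A exon. This intron (chrX:38405572-38421640) was in 7 and 5 reads over all models, which thus held both of these coding ends in 1 molecule.

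Atp6v1a was read with alternative first splice donors. The donor of Atp6v1a-202 (last exonic base chr16:44138962, minus strand) was in 49 of 81 reads (60.5%, 49.0 to 71.2%) in replicate 1 and 197 of 269 (73.2%, 67.5 to 78.4%) in replicate 2. That of Atp6v1a-201 (chr16:44138948) was in 22 and 56 reads, and an unannotated donor 5 bases from the first was in 7 and 10. The intervals overlap, and the share of Atp6v1a-202 among spliced reads (61.3% and 72.0%) did not pass (adjusted p = 0.328, Fisher's exact test).

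Lamp1-201 held 588 of 641 and 716 of 786 spliced reads, and the next most read structures used acceptors 3 bases before and 3 bases after the annotated start of exon 2 (chr8:13165849, plus strand). The upstream acceptor was in 26 of 650 reads (95% interval 2.63 to 5.81%) in replicate 1 and 33 of 786 (4.20%, 2.91 to 5.85%) in replicate 2, the downstream one in 7 (1.08%) and 10 (1.27%). Exon 2 was skipped in 3 and 6 reads. The end of exon 1 and the start of exon 2 are printed from Lamp1-201 with the first 3 bases of exon 2, which the downstream acceptor leaves out, in capitals.
Lamp1-201, exon 1 to exon 2: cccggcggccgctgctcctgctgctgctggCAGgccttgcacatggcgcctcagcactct
Steps of 3 bases keep the reading frame, and their shares differed between the libraries by less than the counting intervals.

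Few reads of Ctsa matched an annotated transcript in full, 27 of 123 and 33 of 111. Of its reads, 76.4% in replicate 1 and 60.4% in replicate 2 were incomplete matches, against 6.33% and 4.18% over all member genes. The most read model in each library had 15 exons and no first intron, with 75 and 53 reads, and began at chr2:164833773 in replicate 1 and chr2:164833807 in replicate 2, within exon 2 of Ctsa-201 (chr2:164833724-164833850). Models of this type made up 76 of 123 reads (61.8%, 52.6 to 70.4%) and 59 of 111 (53.2%, 43.4 to 62.7%). The model of replicate 1 began at the very base that RefSeq gives as the start site of the second promoter printed above, 24 bases before the coding start of Ctsa-201, and that of replicate 2 began 10 bases after this coding start. Molecules that start there and reads that ended short of exon 1 cannot be told apart in these tables.

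Reads from the annotated exon 1 were fewer. Exon 1 was joined to exon 3, as in Ctsa-202, in 23 reads (18.7%) and 29 reads (26.1%), and to exon 2, as in Ctsa-201, in 5 and 4 reads. A first exon that ran on through both introns occurred in 0 reads of replicate 1, which allows up to 2.95% by the exact interval, and in 14 of replicate 2 (12.6%, 7.07 to 20.3%). Among known, NIC and NNC reads, which leave out incomplete matches, Ctsa-202 was the most read structure (23 of 28 and 29 of 44 reads). Its share there did not differ by test (adjusted p = 0.544, Fisher's exact test). The test did not cover the model with no first intron (75 and 53 reads), which counts as an incomplete match.

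**Figure D5:**
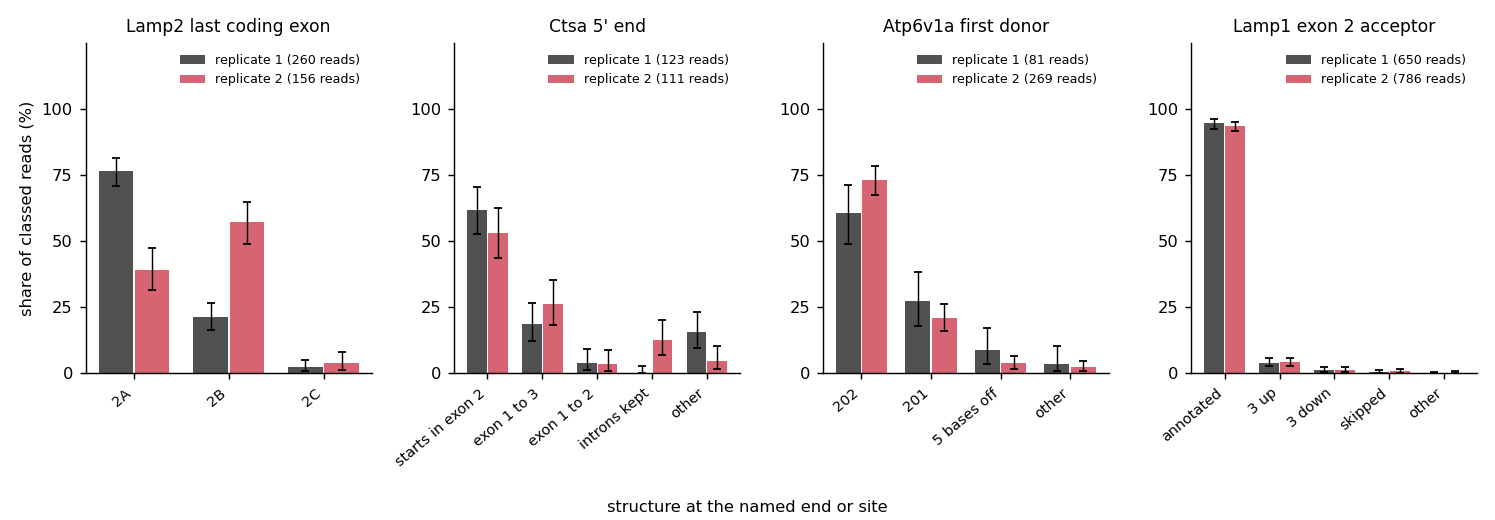
Share of classed reads (percent) by last coding exon of Lamp2, 5' end of Ctsa, first splice donor of Atp6v1a and exon 2 acceptor of Lamp1, in replicate 1 (dark) and replicate 2 (red), with 95% exact Clopper-Pearson intervals. The LAMP-2A and LAMP-2B bars trade places between the libraries, from 76.5% to 39.1% and from 21.2% to 57.1%, while the Lamp1 acceptors keep 94.5% and 93.5% on the annotated site.

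Atp6v0a1 had known structures in only a few of its 18 and 27 reads: Atp6v0a1-203 had 2 and 2, Atp6v0a1-202 had 0 and 2, and Atp6v0a1-201 and Atp6v0a1-210 had none. An unannotated combination of known splice sites with 21 exons had 2 and 11 reads. It differed from Atp6v0a1-203 by the 21 bases printed above, which it left out, and held 1 intron more than Atp6v0a1-202. Over all models that crossed this point, 5 of 10 reads in replicate 1 and 15 of 20 in replicate 2 left these bases out. Neither of the small exons of 18 bases was in any of the 8 and 20 reads across their place (exact intervals for skipping of 63.1 to 100% and 83.2 to 100%).

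Over the member genes 229 junctions outside the annotation were counted, 41 of them in both libraries. Of these 229, 115 lay within 10 bases of an annotated site, 56 of these at 4 bases, and 18 joined known sites anew. In Ctsb, donors 4 bases from the annotated ones were read at several introns, with 8 and 1 reads at the first and 8 and 2 at another. Ctsf had the most NIC reads of any member, 23 and 38, its main form Ctsf-201 holding 483 of 528 and 405 of 468 reads, and Atp6v1h-201 held 212 of 235 and 179 of 197.

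A palindromic motif recurred in the promoters. RefSeq promoter sequences (250 bases before to 50 after the start site, GRCm38.p6) were at hand for 38 of the 49 genes, as 43 promoters. The palindrome TCACGTGA occurred in 5 of the 43 (11.6%), against 0.974% of all 32851 promoters and 2.03% of those of genes with at least 10 reads. Its core CACGTG, which the longer motif contains, was in 9 of 43 (20.9%) against 7.15% and 10.3%. The TATA sequence TATAAA was in 5 of 43 (11.6%) against 13.6% and 7.07%. Of these 5, 3 belong to Ctsg, Ctsm and Ctsq, which had no read. The sequence GGGCGG was in 23 of 43 (53.5%) against 35.7% and 63.5%. In the 31 promoters of member genes with reads, TCACGTGA was in 5 (16.1%) and CACGTG in 9 (29.0%). There TATAAA was in 2 (6.45%) and GGGCGG in 22 (71.0%). Both strands were searched, and a match is a description of letters. The windows around TCACGTGA (in capitals, 18 bases on either side, each on its gene's strand) are printed to show how the flanks differ. They lie at chr8:105566043-105566086, chr17:26676380-26676423, chr16:44139366-44139409, chr2:164833742-164833785 and chr7:142387901-142387944.
Atp6v0d1: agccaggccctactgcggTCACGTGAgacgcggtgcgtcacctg
Atp6v0e: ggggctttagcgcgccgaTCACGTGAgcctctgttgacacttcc
Atp6v1a: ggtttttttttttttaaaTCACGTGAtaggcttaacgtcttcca
Ctsa: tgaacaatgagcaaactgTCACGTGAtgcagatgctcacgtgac
Ctsd: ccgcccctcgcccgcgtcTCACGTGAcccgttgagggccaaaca

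The motif began 4 bases before the start site in Atp6v0d1, and 132, 13 and 99 bases before it in Atp6v1a, Ctsa and Ctsd. In Atp6v0e it began downstream, at base 3 when the start site itself is counted as the first base. The Ctsa match lies in the second promoter, which holds the motif 2 times, on either side of the start of the most read Ctsa model of replicate 1. Levels of these 5 genes did not move together between the libraries. Atp6v1a, Ctsa and Ctsd were higher and Atp6v0d1 and Atp6v0e lower in replicate 2 when scaled to total reads. With TMM scaling Ctsd changed sign and Ctsa no longer passed. After the length step Atp6v1a was higher (0.99) and Atp6v0e (-1.24), Ctsa (-0.78) and Ctsd (-0.19) were lower, while Atp6v0d1 (0.017) did not pass. The Ctsa value was taken at the length of Ctsa-202, which is not its most read model.

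A list of 113 other lysosome genes gave the setting. Of these, 112 had reads and 101 were tested, of which 50 were higher and 26 lower in replicate 2, with a median log2 ratio of 0.73. That is 75.2% of the list, where 64.4% of all genes passed (36.6% higher and 27.9% lower). With TMM scaling the counts were 35 and 29, where 27.6% and 33.8% of all genes were higher and lower. After the length step 21 were higher and 19 lower of 97, or 41.2%, against 41.3% of all genes. Among 11 further pump and assembly genes, 8 were tested and 2 were higher and 4 lower, Rnasek (250 and 8 reads), a small V0 component, being among the lower and Tcirg1 among the higher. Of the 3 tested protease inhibitors all were lower, led by Cst3, the cysteine protease inhibitor cystatin C, with 1420 and 20 reads, the most read gene of the list; after the length step 1 of the 3 was lower and the others did not pass. After Cst3, the genes of highest mean CPM were Laptm4b (717 and 226 reads), Gm2a (438 and 367), the saposin precursor Psap (45 and 436), the mannose 6-phosphate receptor M6pr (220 and 317) and acid glucosidase Gaa (80 and 335).

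Furthest from genes of their length were Oxr1 (4.13), Rraga (3.27) and Tcirg1 above, and Npc2 (332 and 36 reads, adjusted p = 4.98e-102), Rragc (-3.28) and Lamtor4 (-3.20; 74 and 0 reads) below, all past the adjusted threshold by the exact binomial test. The most read annotated transcript of Oxr1 measures only 798 bases, and Npc2 is annotated with 3299.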

How the data were processed

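Long reads of 2 adrenal gland libraries were analysed. The authors counted reads on mm10 with GENCODE M21 from 1 alignment per library, per the deposited notes; transcript models are credited to TALON in the deposited annotation. The deposited values are raw counts per model, not normalized; exons and lengths are those of the deposited tables. The aligner and platform: not given in the sources used here. Counts were summed per known gene and scaled to all reads of the library (CPM). Tests were Fisher's exact test and the exact binomial test (scipy 1.17.1, Benjamini-Hochberg over all genes); scaling alternatives came from edgeR 4.0.16 (TMM) and DESeq2 1.42.0 (size factors). No gene model with replicates could be fitted, since there is 1 group of 2 libraries. The length step subtracted a running median over neighbouring genes by length. Functions were tested on simulated data. Genes with at least 20 reads were described, and isoforms named were the 3 most read of genes with at least 50 spliced reads in each library, with the annotated forms of Lamp2 and Atp6v0a1; of the other lysosome genes, the 6 of highest mean CPM and the 3 furthest from genes of their length on each side. Members and lists were chosen with earlier results of these data known.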

Additional observations from a re-analysis of the deposited data

How the results depend on the processing

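With 2 libraries of 1 group, counting error and the difference in annotated length of the transcripts read limit every comparison. No difference has a replicate check. No paired analysis was possible because there is only 1 group. The count of 30 member genes that differed between the libraries became 19 with the length trend removed, and that of 76 other lysosome genes became 40; TMM, DESeq2 size factors, no filter, a minimum of 50 reads and known transcripts alone left both within 1.5 times. The cause was not tested. The share of reads on the member genes was 1.38% with known transcripts alone, and 0.984% to 1.25% with 1 library left out. Counting known transcripts alone, Atp6v0a2 held a mean of 67.1% of the a position in place of 50.1%, Atp6v0a1 4.30% in place of 18.3%, and Atp6v1c1 99.8% of the C position. Lamp2 was the 1 member gene with a shifted isoform share under every setting run. With the length trend removed, log2 ratios changed sign for Atp6ap2 (-0.30), Atp6v0a1 (-0.26), Atp6v0d1 (0.017), Atp6v1h (-0.15), Ctsa (-0.78), Ctsd (-0.19), Lamp2 (0.36), Gm2a (-0.85) and M6pr (-0.033). TMM turned Atp6v1h (-0.082), Ctsd (-0.073) and Gm2a (-0.052), and DESeq2 size factors turned these (-0.093, -0.084 and -0.063) and Ctsf (-0.0089). With the trend, in an alternative chosen after seeing the data, read at the length of the unannotated models, Atp6v1h (0.52), Ctsd (0.42), Ctsh (0.23) and Lamp2 (-0.18) changed sign, and Atp6v0a2 moved from 0.89 to 0.43.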
